A study of Mus musculus with 12 samples.

Results

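The ventral piece of the embryonic mouse cerebral hemisphere was set against the medial, dorsal, rostral and occipital pieces of the same stage. The arrays were chosen by their titles, and the comparison took the 2 ventral arrays and the 8 arrays of the other 4 pieces, out of 12 arrays in all. The value set against ventral is the unweighted mean of the 4 other piece means. The 2 arrays of the whole hemisphere were left out of the difference and entered the estimate of spread only.

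All groups came from mouse cortex at stage E16.5 and had 2 arrays each: ventral, medial, dorsal, rostral, occipital and whole hemisphere. The labels describe independent dissections, and do not give strain, sex, the number of embryos in a sample or where the cuts ran. The titles name a rostral piece, whereas the protocol text lists a lateral one, and the titles were used. The labels give total RNA, whereas the protocol text describes poly(A)+ RNA, copied into labelled cRNA and hybridised to Affymetrix arrays that were each scanned 2 times.

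The cortex wall at this stage holds dividing radial glia and intermediate progenitors on the ventricle side and young projection neurons above them. The base of the hemisphere also borders the ganglionic eminences, which make GABAergic neurons and the projection neurons of the striatum. A neuron that matures switches off its progenitor genes and builds up vesicles, receptors, channels and the enzymes that relay signals from them. In bulk RNA, fewer cells of a type and less RNA per cell cannot be told apart.

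The deposited value is the average difference, a mean over probe pairs of the perfect-match signal less its mismatch signal, on a linear scale that can fall below 0. Values under a floor of 693.5 were set to that floor before log2, and differences are therefore on a floored log2 scale that understates changes of weak genes. On each array 39.1% to 41.7% of probe sets exceeded 2 times the floor. As a measure of how long the cDNA was, the 5' over 3' signal ratio of beta-actin was 0.665 and 0.856 on the ventral arrays and 0.706 to 0.887 on the 8 others. For GAPDH the same ratio was 0.982 and 1.09 on the ventral arrays and 1.00 to 1.16 on the 8 others. The beta-actin ratio was higher on replicate 2 than on replicate 1 in each of the 6 groups. The part of cDNA length in the results was not tested. The ventral arrays correlated with each other at r = 0.953 across probe sets, and with arrays of the other pieces at 0.854 to 0.939. Rostral replicate 2 correlated more closely with occipital replicate 1 (r = 0.963) than with rostral replicate 1 (0.934), and occipital replicate 1 correlated with its own replicate at 0.936. Without the 4 arrays labelled rostral or occipital, limma called 267 probe sets higher and 302 lower in ventral, against 248 (4.25%) and 323 (5.54%) with them.

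In the ventral piece 198 of 4562 tested genes were higher (4.34%), 262 were lower (5.74%) and 460 differed in either direction (10.1%) from the mean of the other 4 pieces, by limma with Benjamini-Hochberg adjusted p under 0.05 over 5832 probe sets. In probe sets these calls were 248 higher (4.25%) and 323 lower (5.54%). The median size of the called differences was 1.91-fold upward and 1.91-fold downward. The difference passed 2-fold for 91 genes higher and 112 lower, and 4-fold for 13 higher and 12 lower. Of the 198 higher genes 10, and of the 262 lower genes 20, belong to the lists of striatal projection neurons, GABAergic cells and the cell cycle. The other 188 higher and 242 lower genes are in none of these 3 lists. The median difference over all tested genes was -0.02 in log2, and 2174 of the 4562 differences were above 0.

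With 2 arrays in the ventral group, the counts rested on both of them. With ventral replicate 1 left out, 33 probe sets were higher and 58 lower, and with ventral replicate 2 left out, 53 were higher and 102 lower. In these fits the lone ventral array was assumed to vary like the other groups. The number higher was also below the 248 of all arrays without dorsal replicate 1 (164) or dorsal replicate 2 (159). A mean of the dorsal, rostral and occipital pieces alone, without medial, left 144 probe sets higher and 213 lower in ventral.

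**Figure D1:**
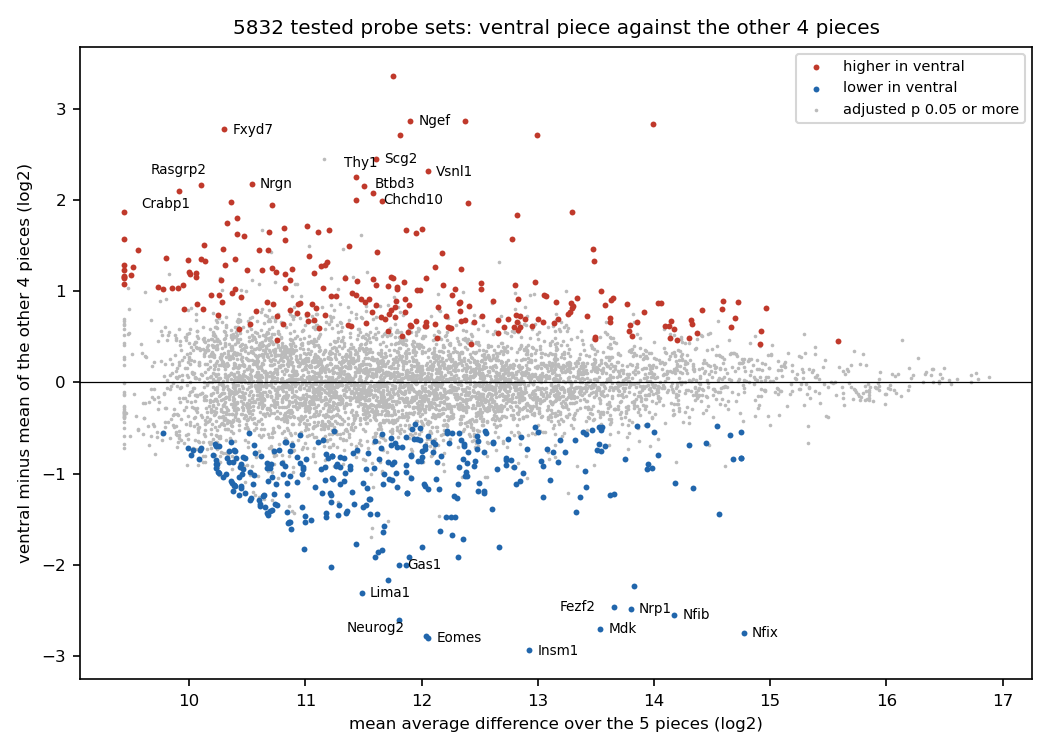
Each point is 1 of the 5832 tested probe sets. The horizontal axis is the mean average difference over the 5 pieces on a log2 scale (means under the floor drawn at it), and the vertical axis is the ventral piece minus the mean of the other 4 pieces in log2. Red points (248) were higher and blue points (323) lower in ventral at adjusted p under 0.05, and the labels name the 10 genes with the largest difference in each direction outside the striatal, GABAergic and cell cycle lists.

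Both ventral arrays lay above all 8 other arrays for 191 of the 198 higher genes, and below all 8 for 252 of the 262 lower genes. Over all tested genes the same held for 510 genes (11.2%) on the upper side and 634 (13.9%) on the lower side, so non-overlap was also frequent outside the called genes. Among the higher genes, 142 had no array of the other pieces at the floor, 15 had at least 6 of the 8 there, and 2 had all 8 there. Among the lower genes, 210 had no ventral array at the floor, 23 had 1 and 29 had both. The fold of a gene with arrays at the floor depends on the floor.

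The medial piece was the one farthest from ventral for most of the called genes. For the 198 higher genes, ventral minus medial had a median of 1.23 in log2, ventral minus dorsal 1.02, ventral minus rostral 0.76 and ventral minus occipital 0.70. For the 262 lower genes these medians were -1.18, -0.89, -0.88 and -0.85 in the same order. The lowest of the 4 other means was medial for 159 higher genes, dorsal for 35, occipital for 3 and rostral for 1. For the lower genes the highest other mean was medial for 198, dorsal for 37, occipital for 16 and rostral for 11. Ventral had the highest mean of the 5 pieces for 197 of the 198 higher genes, and the lowest for all 262 lower genes. These counts describe genes that were selected by the same contrast, and were not tested.

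**Figure D2:**
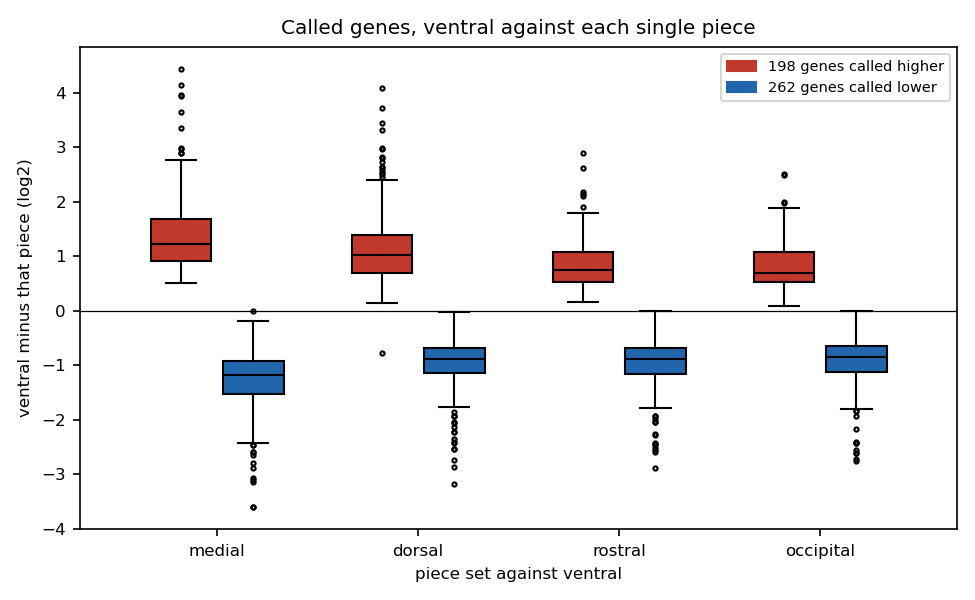
The boxes show ventral minus each single piece in log2 for the 198 genes called higher (red) and the 262 called lower (blue), with the median as a line, the quartiles as box ends, whiskers to the last gene within 1.5 box lengths and further genes as circles. The median is largest in size against medial, 1.23 for higher and -1.18 for lower genes, and smallest against occipital, 0.70 and -0.85.

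The whole hemisphere, which holds all pieces, mostly lay between. Its mean was between ventral and the mean of the other 4 pieces for 169 of the 198 higher and 199 of the 262 lower genes. Both ventral arrays were above both hemisphere arrays for 191 higher genes and below both for 243 lower genes. These genes were selected by the ventral contrast, and the share over all tested genes was not counted, so the counts are descriptions only. The median of ventral minus hemisphere was 0.74 in log2 for the higher and -0.78 for the lower genes.

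Ngef, an exchange factor that acts downstream of Eph receptors, had average differences of 11048 and 11928 in the ventral piece, against a lowest value of 27.8, a median of 1433 and a highest of 5350 on the 8 other arrays. The groups did not overlap, and the other arrays themselves spread widely, with a mean of 405 in the medial piece and 3445 in the occipital piece. The difference was 2.87 in log2 (SE 0.46, adjusted p = 0.00661 by limma). Rasgrp2, an exchange factor for Rap GTPases, had 4325 and 2752 in ventral, against 15.8, 398 and 1254 as lowest, median and highest of the others, and rose by 2.16 in log2 (SE 0.24, adjusted p = 0.00155). For Rasgrp2 only 2 of the 8 arrays elsewhere were above the floor. Rasgrp2 exceeded 2 times the floor on the ventral arrays alone, so it entered the test through them. Of 31 tested genes of small GTPases and their exchange factors, 6 rose and 3 fell, with a median of 0.12 in log2 beside -0.02 over all tested genes. The other members that rose were Ripor2 (1.32), Rap1gap, which switches Rap off (1.07), the Rac exchange factor Tiam1 (0.68) and the neuronal GTPase Rac3 (0.66). The 3 that fell were Rnd2, which acts in migrating cortical neurons (-0.91), the exchange factor Arhgef7 (-0.63) and Rgl2 (-0.58), an effector of Ras and exchange factor for Ral. With medial left out of the mean, Rap1gap, Rac3 and Rgl2 lost their calls. With ventral replicate 1 left out the list had 1 higher and 0 lower calls, and with ventral replicate 2 left out 2 and 1.

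Calcium sensing and calcium-dependent kinases were represented by 25 tested genes, of which 7 rose and 0 fell (median 0.44 in log2). Vsnl1, a neuronal calcium sensor, had 11974 and 10369 in ventral, against 1036, 2399 and 4543 as lowest, median and highest of the others. Prkcb, the beta isoform of protein kinase C, had 16048 and 13171, against 3243, 4877 and 8188. Both genes were clear of the other 8 arrays, and they rose by 2.31 (SE 0.17, adjusted p = 0.000502) and by 1.58 in log2 (SE 0.19, adjusted p = 0.00196). The sensor Hpcal1 (0.92), the calmodulin-binding growth cone protein Gap43 (0.82), the calcium buffer Calb1 (1.95) and the catalytic calcineurin subunit Ppp3ca (0.48) rose as well. Nrgn, which binds calmodulin in dendrites, had 3378 and 5110 in ventral and 181, 479 and 2270 as lowest, median and highest elsewhere, with an adjusted p of 0.0383 by limma. The call on Nrgn was lost without either ventral, medial or dorsal array. With medial left out of the mean, the calls on Nrgn and Ppp3ca were lost. Rcan3, of a family that binds calcineurin and is outside this list, had 8795 and 7154 in ventral, against 1411, 2819 and 3712, and rose by 1.67 in log2 (SE 0.18, adjusted p = 0.00155). With either ventral replicate left out the list had 2 calls.

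Of 36 tested genes of G protein and cyclic nucleotide signalling, 6 rose and 0 fell, and 28 of the 36 differences were above 0 (median 0.34 in log2). Rgs2, Rgs7 and Rgs10 speed up the switching-off of G proteins. Rgs2 had 5319 and 5125 in ventral, against 973, 1677 and 3781 as lowest, median and highest of the others (2.82-fold, adjusted p = 0.025 by limma). Rgs7 had 3991 and 2568, against 679, 1176 and 1752 (log2 1.45, SE 0.24, adjusted p = 0.00772). Rgs10 had 6747 and 4836, against 1953, 3215 and 4639 (log2 0.85, adjusted p = 0.0338). For these 3 regulators the ventral arrays lay above all others. Prkar1b (0.77) and Prkacb (0.42), which encode 2 subunits of the cyclic AMP-dependent kinase, rose with adjusted p = 0.0492 each by limma, and the G protein subunit gene Gng3 rose by 0.57. With medial left out of the mean, Prkar1b, Prkacb and Gng3 lost their calls. Leaving out any 1 of the 10 arrays of the pieces gave this list 0 to 4 calls, with 0 without ventral replicate 1 and 1 without ventral replicate 2.

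Genes of vesicle release had 14 of 30 tested members higher and 1 lower in the ventral piece (median 0.64 in log2). Nsf, the ATPase that takes apart spent fusion complexes, had 7037 and 10549 in ventral, against 1347, 2872 and 4901 as lowest, median and highest of the others. Sncb, the presynaptic protein beta-synuclein, had 15950 and 16018, against 1921, 4163 and 10627. Dnm1, the GTPase that pinches off recycled vesicles, had 24936 and 20724, against 5271, 8645 and 11142. None of these ranges overlapped, and the differences were 1.68 (SE 0.20), 1.83 (SE 0.38) and 1.46 in log2 (SE 0.16), with adjusted p = 0.00195, 0.0191 and 0.00147 by limma. The calcium sensors of release Syt1 (1.01) and Syt5 (0.94), the fusion proteins Snap25 (0.69) and Vamp2 (0.54), the complexin Cplx2 (0.64), Napb (0.82), which works with Nsf, and the vesicle proton pump subunit Atp6v1b2 (0.47) rose by less. The member that fell was Vamp3, a fusion protein used in cells outside the synapse as well, with 943 and 1000 in ventral against 1411, 1962 and 2724. Pacsin1, which bends membranes with dynamin and is outside this list, had 3653 and 3003 in ventral, against -592, 840 and 1698, and rose by 1.74 in log2 (SE 0.24, adjusted p = 0.00343). The list had 3 higher calls without ventral replicate 1 and 5 without ventral replicate 2. The call on Pacsin1 was lost without ventral replicate 1. With medial left out of the mean, Sncb, Vamp2, Napb, Atp6v1b2 and Vamp3 lost their calls.

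Of 18 tested genes of secretory granules and neuropeptides, 7 rose and 0 fell (median 0.66 in log2), 4 of them the peptide precursor genes Penk, Sst, Tac1 and Npy of striatal and GABAergic cells. The other 3 were Scg2, Resp18 and Chgb, which belong to the granules themselves. Scg2, which encodes the granule protein secretogranin II, had 9187 and 8316 in ventral, against 152, 1926 and 3003 as lowest, median and highest of the others. Resp18, a protein of endocrine granules, had 3608 and 3095, against 271, 803 and 1580. Scg2 stood high on both ventral arrays and rose by 2.45 in log2 (SE 0.16, adjusted p = 0.00025 by limma). Resp18 rose by 1.80 (SE 0.14, adjusted p = 0.000508) and Chgb, or chromogranin B, by 0.67 (SE 0.12). Cyb561, the cytochrome that carries electrons into granules, is outside this list and had 3131 and 2897 in ventral, against 353, 734 and 1999, a rise of 1.60 in log2 (SE 0.30, adjusted p = 0.0133), while its other tested probe set differed by 0.48 and did not pass. The list had 4 calls without ventral replicate 1 and 5 without ventral replicate 2. Scg2 and Resp18 kept theirs in both cases, and Cyb561 lost its call in both.

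The promoter of Scg2 is shown because it is the 1 promoter among the named higher genes with the full 8-base cAMP response element. Promoters are 300-base windows from 250 bases before to 50 after the gene start, taken from RefSeq on GRCm38.p6, and they were found for 21 of the 25 named higher and 20 of the 25 named lower genes. The window of Scg2 is chr1:79439977-79440276 on the minus strand, printed in gene direction, with the motif in capitals. The motif begins 68 bases before the start.
Scg2: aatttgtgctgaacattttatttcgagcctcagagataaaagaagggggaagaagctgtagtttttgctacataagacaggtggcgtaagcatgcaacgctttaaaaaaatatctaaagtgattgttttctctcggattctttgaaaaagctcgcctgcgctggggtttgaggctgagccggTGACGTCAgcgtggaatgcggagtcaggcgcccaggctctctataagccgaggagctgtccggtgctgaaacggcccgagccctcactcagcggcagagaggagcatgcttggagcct
The motif TGACGTCA, searched on both strands, was in 2.03% of the promoters of all 27025 genes of the table and in 3.89% of the 3699 tested genes that have a promoter there. It was in 5.62% of the 160 promoters of genes with a probe set called higher, and in 2.13% of the 235 with a probe set called lower. The shorter form TGACGT, which lies within it, was in 15.0% of the higher, 9.36% of the lower and 15.1% of the tested promoters. These shares are descriptions, and a match is not a shown site of binding.

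Membrane pumps, channels and receptors had few tested members, and those that passed were higher. Of 12 sodium and calcium channels and pumps, 3 rose and 0 fell (median 0.34 in log2). Fxyd7, a brain regulator of the sodium pump, had 5983 and 5065 in ventral, against -1387, 342 and 1373 as lowest, median and highest of the others. Fxyd7 was at the floor on 6 of the 8 arrays of the other pieces, and it rose by 2.77 in log2 (SE 0.42, adjusted p = 0.00502 by limma). The pump's own beta subunits Atp1b1 (1.04) and Atp1b3 (0.50) rose too. The call on Atp1b3 was lost without any 1 of the 10 arrays of the pieces. Cacna2d3, an auxiliary calcium channel subunit outside this list, had 4187 and 3440 in ventral, against 384, 1320 and 2129, and rose by 1.56 in log2 (SE 0.24, adjusted p = 0.00513). Of 11 potassium channel genes 1 rose, beside 4.34% of all tested genes. It was the A-type channel Kcnd2, with 2410 and 2016 against 338, 752 and 1450 (log2 1.35, SE 0.24, adjusted p = 0.0108 by limma). Without ventral replicate 1 or 2, the calls on Fxyd7 and Kcnd2 were lost and that on Atp1b1 was kept. Cacna2d3 lost its call without ventral replicate 1.

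Of 5 tested genes of GABA, glycine and acetylcholine receptors, the glycine receptor subunit Glrb (0.75 in log2) and Gphn (0.67), the scaffold gephyrin that holds glycine and GABA receptors in place, rose. Glrb had 4689 and 5190 in ventral, against 2070, 3127 and 3576 as lowest, median and highest of the others. Gphn had 5399 and 5752, against 2912, 3482 and 4563. Both were above all other arrays, with adjusted p = 0.0144 and 0.0223 by limma, and both calls were lost without either ventral array. The GABA-B receptor gene Gabbr1 differed by 0.52 and the GABA-A subunit Gabrb1 by 1.16 in log2, with adjusted p = 0.0643 and 0.24 by limma. Of 6 glutamate receptor and transporter genes, the kainate receptor subunit Grik1 rose (1.27), a call lost without ventral replicate 2. The AMPA receptor subunits Gria1 (0.36) and Gria2 (0.03) did not pass.

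Other genes on the higher side had varied roles. Thy1, a surface glycoprotein of neurons, had 6716 and 7681 in ventral, against 773, 1404 and 3100 as lowest, median and highest of the others, and rose by 2.25 in log2 (SE 0.31, adjusted p = 0.00351 by limma). Cx3cl1, the chemokine fractalkine that neurons present to microglia, had 7227 and 6163, against 961, 1577 and 3202, and rose by 2.00 (SE 0.28, adjusted p = 0.00391). Chchd10, a mitochondrial protein, had 7155 and 7829, against 1050, 1581 and 3754, and rose by 2.07 (SE 0.36, adjusted p = 0.00923). For these 3 genes no other array reached the ventral values. Dmtn, an actin-bundling protein also known from red cells, had 8124 and 6832, against 455, 1829 and 4320 (log2 1.99, SE 0.42, adjusted p = 0.02). Btbd3, which orients dendrites in sensory cortex, had 5302 and 9639, against 865, 1646 and 2934 (log2 2.15, SE 0.26, adjusted p = 0.00201). Crabp1, a carrier of retinoic acid, had 3472 and 2708, against 75.7, 398 and 868 (log2 2.09, SE 0.20, adjusted p = 0.000882), with 6 of those 8 at the floor. Of the 4 other retinoid genes tested none passed. Wfs1, a protein of the endoplasmic reticulum, had 1756 and 2409 in ventral, whereas all 8 other arrays were at the floor, so that it was at least 2.97-fold higher (adjusted p = 0.000651 by limma). Only the ventral arrays exceeded 2 times the floor, so Wfs1 entered the test through the piece where it was high. Cdkn1a, the cell cycle inhibitor p21, had 2946 and 2899, against 450, 787 and 1884, and rose by 1.62 in log2 (SE 0.24, adjusted p = 0.00428), while its other tested probe set differed by 1.18 and did not pass. The probe set named for the myosin gene Myh7 rose by 1.87 in log2 and is a type designed against sequence that related genes share. With either ventral replicate left out, Btbd3, Crabp1 and Wfs1 kept their calls, and Thy1, Chchd10, Dmtn and Cdkn1a lost theirs. Cx3cl1 and Myh7 lost theirs without ventral replicate 1.

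**Figure D3:**
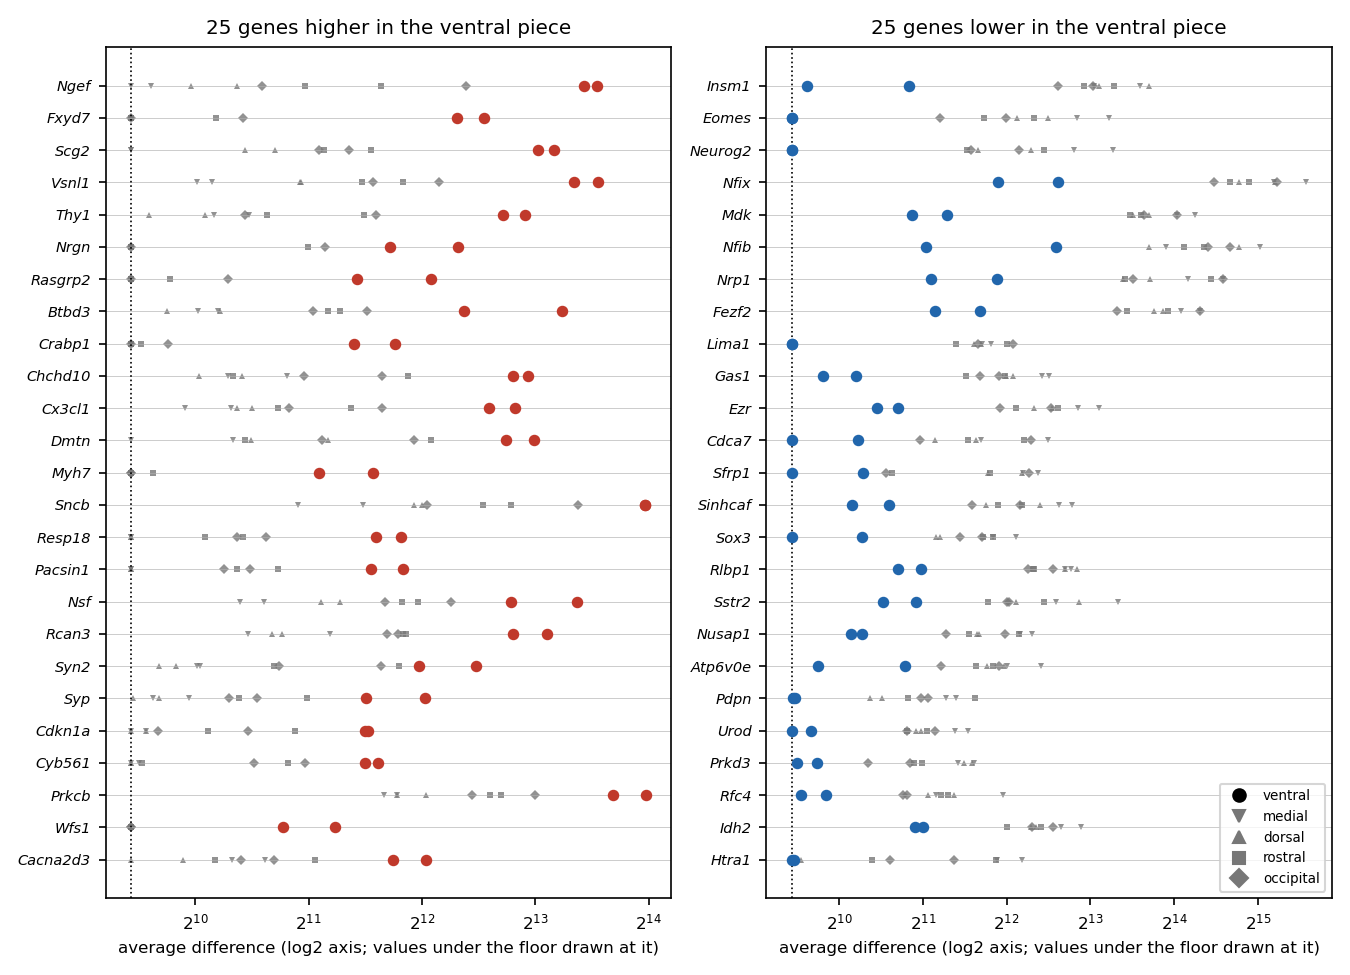
Average differences on a log2 axis for the 25 genes with the largest rise (left) and the 25 with the largest fall (right) outside the striatal, GABAergic and cell cycle lists. Coloured circles are the 2 ventral arrays, grey symbols the 8 arrays of the other pieces, and the dotted line is the floor of 693.5. The circles lie beyond every grey symbol for all genes except Htra1, where the higher ventral value of 703 passes the lowest other value of 668.

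On the lower side, genes of cortical progenitors and of young pallial neurons led. Of 16 tested genes of pallial projection neurons and intermediate progenitors, 7 fell and 0 rose, with a median of -1.16 in log2. Nfix, a nuclear factor I protein, had 3816 and 6241 in ventral, against 22835, 33792 and 48876 as lowest, median and highest of the others. Insm1, a zinc finger factor of basal progenitors, had 786 and 1819, against 6262, 8630 and 13288. Eomes, a factor of intermediate progenitors, had 231 and 240, against 2355, 4791 and 9542. The ventral arrays were far below all others, and both were at the floor for Eomes, which was at least 6.98-fold lower (adjusted p = 0.000624 by limma). The other tested probe set of Eomes differed by -1.23 in log2 and was called as well. Nfix fell by 2.75 in log2 (SE 0.30, adjusted p = 0.00155), and its other tested probe set, at -2.61, was called as well. Neurod6, a factor of postmitotic pallial neurons that is not among the largest changes, fell by 1.26 (SE 0.20, adjusted p = 0.00661). The list had 3 calls without ventral replicate 1, where Neurog2, Nfib, Fezf2 and Neurod6 lost theirs, and 7 without ventral replicate 2.

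For Eomes and Neurog2 the medial mean was the highest, and ventral was also below the hemisphere. Eomes averaged 8452 in the medial, 5112 in the dorsal, 4263 in the rostral and 3216 in the occipital piece, and 2671 in the whole hemisphere. Neurog2, which drives neuron formation from dorsal progenitors, had 155 and 483 in ventral, and means of 8522 in medial, 4128 in dorsal, 4281 in rostral, 3787 in occipital and 3125 in the hemisphere. The ventral arrays were therefore below the mean of every other group for both genes.

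Radial glia, the stem cells of the cortex, had 5 of 16 tested genes lower and 0 higher (median -0.50 in log2). The other 11 did not pass, and 1 of them was higher with an unadjusted p under 0.05 by limma. Summed over 21 radial glia genes, the average difference was 134881 and 143372 in ventral, within the 131775 to 179690 of the 8 other arrays. Prom1, the membrane protein prominin of the ventricular surface, had 887 and 1211 in ventral, against 2414, 2840 and 3300 as lowest, median and highest of the others. Sox3, a factor of neural progenitors, had 562 and 1240, against 2281, 3359 and 4424. Both genes were clear of the other arrays and fell by 1.45 (SE 0.15, adjusted p = 0.00114 by limma) and by 1.77 in log2 (SE 0.31, adjusted p = 0.0095). Tead2, the DNA-binding partner of YAP, fell by 1.35, Aldoc, the aldolase of glia, by 1.24, and Dbi, which binds acyl-CoA, by 0.80. Rlbp1, a retinaldehyde-binding protein of glia that is outside this list, had 1667 and 2021, against 4903, 6308 and 7309, and fell by 1.71 (SE 0.15, adjusted p = 0.000652). Gas1, a membrane protein that helps hedgehog signals, had 899 and 1177, against 2933, 4070 and 5804, and fell by 2.01 (SE 0.16, adjusted p = 0.000508). Rlbp1 and Gas1 kept their calls with either ventral replicate left out. The radial glia list had 1 call without ventral replicate 1 and 4 without ventral replicate 2.

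Of 6 tested FGF pathway genes, 3 fell and 0 rose (median -0.58 in log2). The receptor Fgfr1 had 1089 and 1368 in ventral, against 2429, 3488 and 5465 as lowest, median and highest of the others, and the receptor Fgfr2 had 2351 and 1813, against 3319, 3695 and 4434. Neither receptor overlapped with the other arrays, and they fell by 1.45 (SE 0.21, adjusted p = 0.00418 by limma) and by 0.88 in log2 (SE 0.16, adjusted p = 0.0102). Dusp6, a phosphatase induced by FGF signals, had 1353 and 1110, against 1324, 2169 and 3461, and fell by 0.84 (adjusted p = 0.0454). The ventral and other values of Dusp6 overlapped, and it kept its call in 2 of the 12 fits that left out 1 array and in 7 of all 25 alternatives. Etv4, another FGF target, differed by -0.32 and did not pass. The list had 1 call with either ventral replicate left out and 2 with either medial replicate left out.

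Of 15 tested Notch pathway genes, 3 fell and 0 rose (median -0.40 in log2). Mfng, a glycosyltransferase that modifies Notch, had 1187 and 1336 in ventral, against 2379, 3322 and 4336 as lowest, median and highest of the others. Rbpj, the DNA-binding partner of active Notch, had 786 and 1143, against 1622, 2136 and 2457, and Id2, an inhibitor of proneural factors, had 16514 and 17257, against 24489, 30307 and 34183. All 3 were clear of the other arrays and fell by 1.37 (SE 0.16), 1.10 (SE 0.20) and 0.83 in log2 (SE 0.13), with adjusted p = 0.00195, 0.0109 and 0.00703 by limma. Of 10 tested BMP and TGF-beta genes, the transducers Smad4 (-0.93) and Smad5 (-0.81) fell. Of 3 hedgehog genes, Gas1 and the transducer Smo (-0.74) fell, and both ventral arrays were at the floor for Smo. Of 18 Wnt genes, the receptors Fzd2 (-1.17) and Fzd8 (-1.04) and the secreted inhibitor Sfrp1 (-1.86) fell, and the effector Tcf7l2 rose (1.35). The call on Sfrp1 was lost without either ventral, medial or dorsal array. The calls on Smad4, Smo, Fzd2, Fzd8 and Tcf7l2 were lost without either ventral array, and that on Smad5 without ventral replicate 1. The Notch list had 1 call without ventral replicate 1, and 2 when ventral replicate 2 was the one left out.

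The insulin-like growth factor list had 2 of 7 tested genes lower and 0 higher, both binding proteins that hold the factors outside cells. Igfbp3 had 733 and 535 in ventral, against 833, 1744 and 3491 as lowest, median and highest of the others, and fell by 1.34 in log2 (SE 0.28, adjusted p = 0.02 by limma). Igfbp2 had 11111 and 11337, against 14373, 15582 and 17379, and fell by 0.48 (SE 0.12, adjusted p = 0.0335). Both were below every other array. The receptor Igf1r (-0.66) and the factors Igf1 (0.62) and Igf2 (0.35) did not pass. Midkine (Mdk), a secreted growth factor of progenitors, had 2508 and 1869, against 11349, 13076 and 19542, and fell by 2.70 (SE 0.17, adjusted p = 0.00025). The calls on Igfbp2 and Igfbp3 were lost without either ventral array, and the call on Mdk was kept. Igfbp2 kept its call in 3 of the 12 fits that left out 1 array, losing it also without either medial, dorsal or rostral array and without occipital replicate 2.

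Of 12 tested Eph receptors and ephrins, 2 rose and 1 fell (median 0.15 in log2). The receptor Epha7 had 2541 and 2663 in ventral, against 472, 1008 and 1237 as lowest, median and highest of the others, and the ligand Efnb3 had 20005 and 19834, against 6742, 11120 and 15378. The ligand Efnb1 had 1977 and 2819, against 4747, 5878 and 6626. The 3 genes did not overlap with the other arrays, and the differences were 1.46 (SE 0.12), 0.92 (SE 0.14) and -1.26 in log2 (SE 0.23), with adjusted p = 0.000624, 0.00451 and 0.0114 by limma. Epha3 (-0.15), Epha4 (-0.89) and Epha5 (0.25) did not pass. Among 21 semaphorins and guidance receptors 1 rose and 1 fell, shares close to the 4.34% and 5.74% of all tested genes: Sema4a rose (0.79) and the semaphorin receptor Nrp1 fell (-2.49, SE 0.46). Nrp1 had 2186 and 3784 in ventral, against 10708, 15942 and 24623, and its other tested probe set, at -2.16, was called as well. With either ventral replicate left out, Epha7 kept its call, and Efnb3, Sema4a and Nrp1 lost theirs. Efnb1 lost its call without ventral replicate 1.

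Lima1 and Ezr, which act on the actin network, were among the largest falls. The list of 42 tested actin genes had a median of 0.06 in log2, with 1 higher and 3 lower. These shares are near the 4.34% higher and 5.74% lower of all tested genes. Lima1, which cross-links actin filaments, had 441 and 524 in ventral, against 2694, 3315 and 4308 as lowest, median and highest of the others. Ezr, or ezrin, which ties actin to the membrane, had 1672 and 1406, against 3878, 5950 and 8789. Both ventral arrays were at the floor for Lima1, which was at least 4.94-fold lower (adjusted p = 0.000508 by limma), and Ezr fell by 1.92 in log2 (SE 0.20, adjusted p = 0.00135). The membrane glycoprotein Pdpn, an ezrin partner, had 710 and 702, against 1318, 2082 and 3142, and fell by 1.54 (SE 0.23, adjusted p = 0.00494). Tagln3 fell by 0.55 and the tropomyosin Tpm1 rose by 0.78. With either ventral replicate left out, Lima1 and Ezr kept their calls and Pdpn, Tagln3 and Tpm1 lost theirs.

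Of 37 tested chromatin regulators and high mobility group proteins, 5 fell and 0 rose, and 8 of the 37 differences were above 0 (median -0.23 in log2). Ezh2, the methyltransferase of Polycomb complex PRC2, had 3814 and 3608 in ventral, against 6733, 8148 and 8958 as lowest, median and highest of the others. Hmgb2, a DNA-bending protein abundant in dividing cells, had 2556 and 1775, against 6022, 7091 and 10533. Both lay below all other arrays, and they fell by 1.11 (SE 0.13, adjusted p = 0.00195 by limma) and by 1.81 in log2 (SE 0.18, adjusted p = 0.00106). The Polycomb genes Cbx2 (-1.08) and Bmi1 (-0.54) and the deacetylase Hdac1 (-1.29) fell too, and both ventral arrays were at the floor for Cbx2 and Hdac1. Sinhcaf, a subunit of the Sin3-Hdac complex that is outside this list, had 1544 and 1140, against 3067, 4626 and 7031, and fell by 1.80 (SE 0.26, adjusted p = 0.00428). Cdca7, a chromatin protein linked to DNA methylation, had 1195 and 532, against 2005, 3240 and 5790, and fell by 1.92 (SE 0.44, adjusted p = 0.0272). Rfc4, a clamp loader of DNA replication, fell by 1.51 and Nusap1, a spindle protein, by 1.63. The chromatin list had 3 calls without ventral replicate 1 and 4 without ventral replicate 2. The call on Cdca7 was lost without dorsal replicate 1 or either ventral replicate, those on Sinhcaf and Rfc4 without ventral replicate 2, and that on Nusap1 without ventral replicate 1.

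The promoters of Cdca7 and Sinhcaf are shown because they are the 2 among the named lower genes with the E2F-type motif TTTCCCGC. The window of Cdca7 is chr2:72475969-72476268 on the plus strand and holds the reverse complement of the motif in capitals. The window of Sinhcaf is chr6:148946421-148946720 on the minus strand. Both are RefSeq windows on GRCm38.p6, printed in gene direction.
Cdca7: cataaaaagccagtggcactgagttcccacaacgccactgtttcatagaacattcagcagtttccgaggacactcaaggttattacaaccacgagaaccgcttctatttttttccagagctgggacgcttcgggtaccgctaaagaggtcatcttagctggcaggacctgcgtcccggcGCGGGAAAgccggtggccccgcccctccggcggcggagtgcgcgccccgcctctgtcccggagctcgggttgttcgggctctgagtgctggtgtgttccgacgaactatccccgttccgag
Sinhcaf: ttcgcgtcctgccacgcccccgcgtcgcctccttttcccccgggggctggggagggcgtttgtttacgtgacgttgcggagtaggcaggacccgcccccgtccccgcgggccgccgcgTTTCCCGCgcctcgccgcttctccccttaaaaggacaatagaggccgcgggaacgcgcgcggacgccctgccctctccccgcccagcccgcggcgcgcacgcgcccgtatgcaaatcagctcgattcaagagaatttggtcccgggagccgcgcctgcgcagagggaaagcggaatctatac
The motif, on either strand, was in 5.11% of the 235 promoters of genes with a probe set called lower and in 0.625% of the 160 with a probe set called higher. It was in 2.76% of the promoters of tested genes and in 1.24% of all promoters of the table. Of the 11 motifs searched, a second E2F form, TTTGGCGC, was in 2.13% of the lower and 0.0% of the higher promoters, beside 1.32% of the tested ones. The lower shares rest on 12 promoters for TTTCCCGC and 5 for TTTGGCGC. Differences were not confined to the E2F forms. CCAAT was in 49.8% of the lower, 36.9% of the higher and 43.1% of the tested promoters. CAGCTG was in 28 of 235 lower, 40 of 160 higher and 619 of 3699 tested promoters. The motifs were chosen after the values were seen. These shares are descriptions, and a match is not a shown site of binding.

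Sstr2, a receptor for somatostatin, had 1934 and 1478 in ventral, against 3507, 4998 and 10269 as lowest, median and highest of the others. It fell by 1.67 in log2 (SE 0.27, adjusted p = 0.00661 by limma), opposite in direction to its ligand gene Sst, which had 50907 and 42183 in ventral, against 1730, 7939 and 18887. Of its 2 other tested probe sets, 1 differed by -1.22 and was called, and 1 differed by -0.71 and did not pass. The call on Sstr2 was lost without either ventral replicate. Its promoter is shown because it holds the same 8-base motif, in capitals, as the promoter of Scg2, a gene that rose. The window is chr11:113619077-113619376 on the plus strand (RefSeq, GRCm38.p6), and the motif begins 58 bases before the start.
Sstr2: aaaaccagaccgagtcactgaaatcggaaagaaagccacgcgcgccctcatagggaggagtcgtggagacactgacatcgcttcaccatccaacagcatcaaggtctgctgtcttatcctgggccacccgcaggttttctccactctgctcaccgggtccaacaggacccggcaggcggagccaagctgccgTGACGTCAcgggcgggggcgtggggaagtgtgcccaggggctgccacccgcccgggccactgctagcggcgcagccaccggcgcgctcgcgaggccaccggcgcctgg

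Of 47 tested genes of oxidative phosphorylation 0 passed in either direction by limma and 2 had an unadjusted p under 0.05, with 35 of 47 differences above 0 and a median of 0.11 in log2. Of 21 genes of glycolysis and creatine energy, 4 rose and 1 fell: the neuronal enolase Eno2 (1.07), the mitochondrial creatine kinase Ckmt1 (0.98), the neuronal glucose transporter Slc2a3 (0.95) and the aldolase Aldoa (0.69) rose, and the glial aldolase Aldoc fell (-1.24). Aldoa had 30982 and 27659 in ventral, against 16236, 18337 and 21190 as lowest, median and highest of the others, and Aldoc had 5605 and 6267, against 9732, 14042 and 18809. The 2 aldolases thus lay on opposite sides of the other arrays. With medial left out of the mean, Ckmt1 and Slc2a3 lost their calls. This list had 0 calls without ventral replicate 1, and 0 higher and 1 lower without ventral replicate 2. Of 42 genes of splicing and RNA binding 2 fell (Srsf4, -0.86, and Hnrnpm, -0.49) and 0 rose, and 2 of the 42 differences were above 0 (median -0.26). The tested cytosolic ribosomal proteins had 1 of 24 lower (Rpl13a, -0.76) and a median of -0.12, and 49 chaperone and proteasome genes had 1 higher, 1 lower and a median of -0.08. The shares lower in the splicing and ribosomal lists were near the 5.74% of all tested genes. Both shares of the chaperone and proteasome list were below the 4.34% higher and 5.74% lower of all tested genes. Among single enzymes, the mitochondrial isocitrate dehydrogenase Idh2 had 1924 and 2055, against 4102, 5336 and 7569, and fell by 1.47 in log2 (SE 0.15, adjusted p = 0.00114). Urod, of heme synthesis, fell by 1.53 (SE 0.14, adjusted p = 0.000821), with 1 of its ventral arrays at the floor. Idh2 and Urod kept their calls with either ventral replicate left out. Srsf4 lost its call without ventral replicate 1, Rpl13a without ventral replicate 2, and Hnrnpm without any 1 of the ventral, medial or dorsal arrays and without rostral replicate 1.

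The remaining genes among the 25 largest falls were of mixed function. Atp6v0e, a subunit of the vesicle and lysosome proton pump, had 1768 and 863 in ventral, against 2379, 3753 and 5445 as lowest, median and highest of the others. Prkd3, a protein kinase D, had 723 and 854, against 1302, 2380 and 3125. Both were below all other arrays, and fell by 1.57 (SE 0.28, adjusted p = 0.0109 by limma) and by 1.53 in log2 (SE 0.21, adjusted p = 0.00351). Htra1, a secreted serine protease, had 565 and 703, against 668, 2107 and 4663, and fell by 1.47 (SE 0.36, adjusted p = 0.0336). The ventral and other values of Htra1 overlapped, since its dorsal mean was 709 and its medial mean 4226. Atp6v0e lost its call without ventral replicate 2 and Prkd3 without ventral replicate 1. Htra1 lost its call without any 1 of the ventral, medial or dorsal arrays and without occipital replicate 2.

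**Figure D4:**
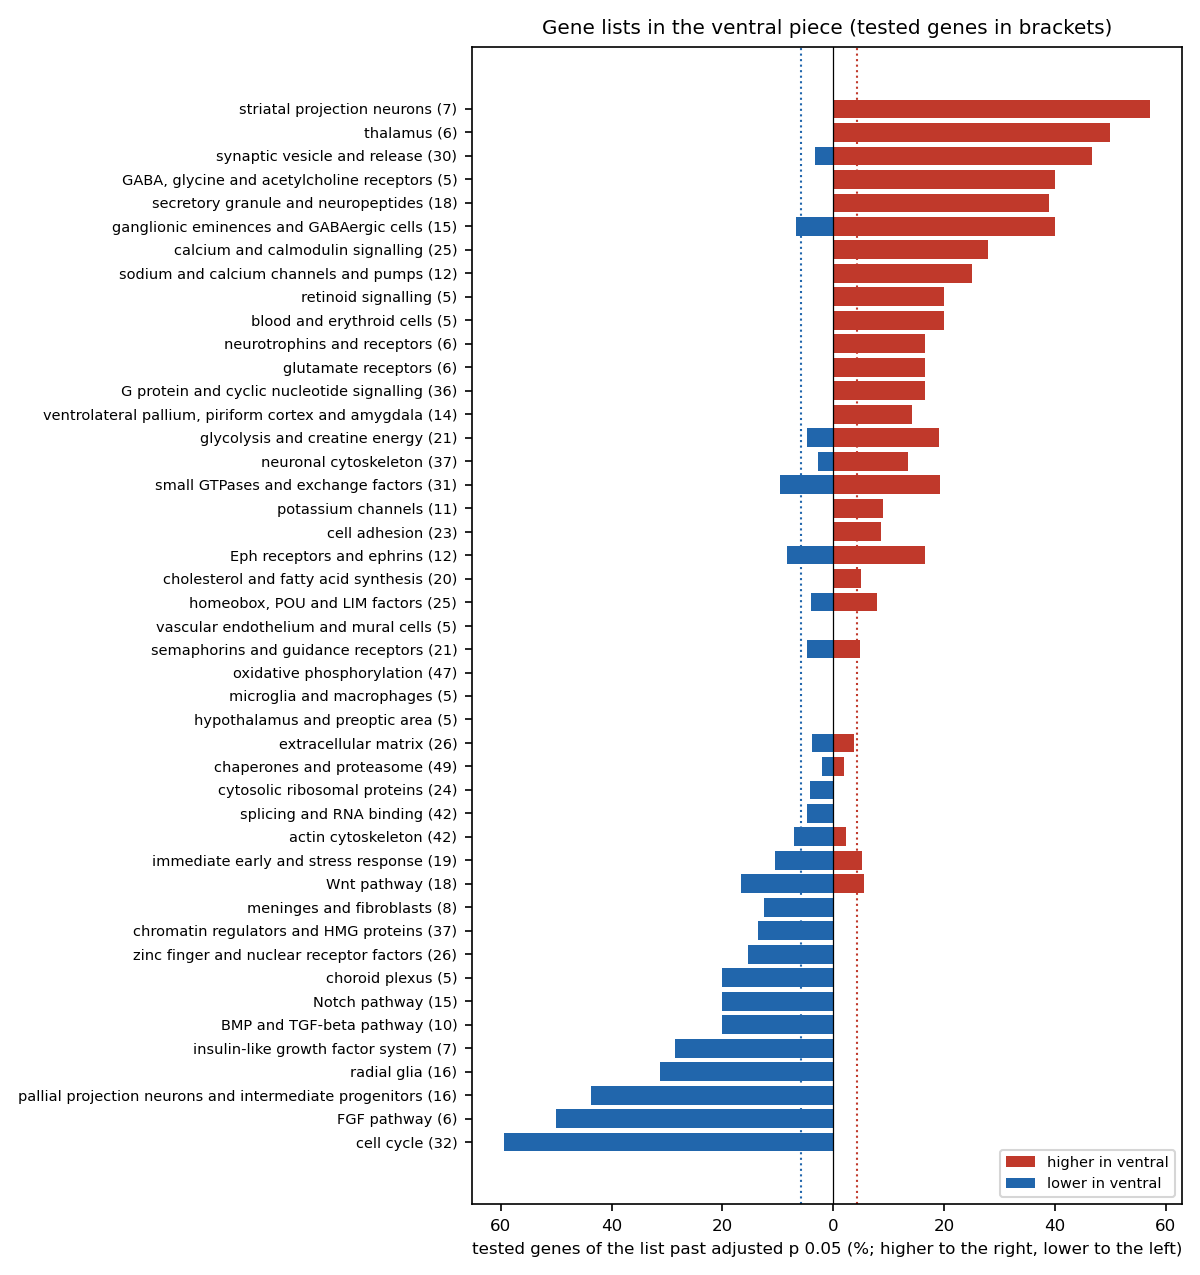
Share of each list's tested genes that were higher (red, to the right) or lower (blue, to the left) in ventral at adjusted p under 0.05, in percent, for lists with 5 or more tested genes, ordered by the share higher minus the share lower. The dotted lines mark the shares over all tested genes, 4.34% higher and 5.74% lower. Synaptic vesicle genes (14 of 30 higher) stand near the top, and FGF pathway (3 of 6 lower) and cell cycle genes (19 of 32 lower) at the bottom.

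Markers of other tissues and cells were read beside these results. The sums here and for radial glia above are on the linear scale, with 1 probe set per gene and values below 0 counted as 0. Genes of high level, such as Sst in the GABAergic list, therefore weigh most in them. Striatal projection neuron markers had a summed average difference of 53117 and 46813 over 13 genes in ventral, against 11374 to 30905 on the 8 other arrays, and 4 of 7 tested markers rose. GABAergic markers summed to 149142 and 131392 over 17 genes, against 29717 to 95097, with 6 of 15 higher and 1 lower. Pallial markers summed to 61165 and 84793 over 19 genes, against 150360 to 233402. Ventral was thus outside the range of the other pieces for all 3 lists, above it for the first 2 and below it for the last, and the part of these markers in the other differences was not tested. Cell cycle markers summed to 55041 and 60207, against 100536 to 149663, with 19 of 32 lower, and their part was not tested either. Without ventral replicate 1 the striatal list had 1 call, the GABAergic list 2 higher and 0 lower, and the cell cycle list 8. With ventral replicate 2 left out these were 2, 4 and 0, and 11. The striatal list also had 2 calls without any 1 of the medial or dorsal arrays, and Drd2 kept its call in 4 of 12 such fits. The GABAergic list had 9 higher calls without occipital replicate 1 and 0 lower calls without dorsal replicate 1.

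Thalamus markers summed to 63229 and 67448 over 12 genes in ventral, against 27459 to 45013, and 3 of 6 tested markers rose. All 3, Calb1, Tcf7l2 and Gap43, are also expressed outside the thalamus. Cholinergic markers of the basal forebrain summed to 9784 and 10432 over 6 genes, against 1448 to 9363, and 0 of 2 tested markers passed by limma, 1 with an unadjusted p under 0.05. Among them Lhx8, a factor of the basal forebrain, averaged 6144 in ventral and 1320 in the others (log2 2.45, adjusted p = 0.0777). Oligodendrocyte markers summed to 8731 and 8579 over 11 genes, against 4215 to 7523, with 0 of 4 passing by limma and 2 with an unadjusted p under 0.05. Hypothalamus markers (17063 and 25507, against 12819 to 24104), endothelial markers (19119 and 20211, against 17476 to 22678) and microglia markers (11651 and 15525, against 10807 to 15082) had 0 of 5 tested genes called in each list by limma, and 0 with an unadjusted p under 0.05. Blood markers summed to 128733 and 110852, against 109168 to 127079, with 1 of 5 higher (Car2, a carbonic anhydrase, 0.86), and the hemoglobin gene Hba-a1 averaged 78116 in ventral and 75582 in the others. Choroid plexus markers summed to 21920 and 22434, against 23198 to 33949, with 1 of 5 lower (Igfbp2), and Ttr, the defining transthyretin gene, averaged 206 in ventral, under the floor, and 1828 in the others, and did not pass. Markers of meninges and fibroblasts summed to 32963 and 34713, against 29400 to 51030, with 1 of 8 lower, again Igfbp2. The part of thalamus, cholinergic and oligodendrocyte markers in the higher genes was not tested.

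Several probe sets of a gene mostly went the same way. Of 98 genes with several tested probe sets and at least 1 called, 26 had all of them called in the same direction and 59 had others with the same sign that did not pass. For 13 genes an uncalled probe set had the opposite sign, and 0 genes had probe sets called in opposite directions. Among the genes described above, Cbx2 had another probe set at -0.06 in log2, Penk at 0.81, Efnb3 at 0.59 and Srsf4 at -0.32, and none of these 4 passed.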

How the data were processed

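The authors' deposited values are intensities, given as Affymetrix average differences for 12 arrays (6 groups of 2). As deposited they share a 2% trimmed mean of 2501.6 to 2501.9, and no further scaling was applied. The software that made them is not given in the sources used here. The floor of 693.5 is the root mean square of the values below 0 over all arrays. Of 12488 probe sets, 66 controls were left out, and 5832 above 1387 (2 times the floor) on at least 2 arrays were tested. Of these, 5292 have 1 gene symbol in the platform annotation (4562 genes), 212 several and 328 none. RefSeq's gene table (GRCm38.p6) changed 0 symbols. A gene could pass the filter of 1387 through the 2 ventral arrays alone, and such a gene could hardly be called lower in ventral. Wfs1, Rasgrp2 and Magel2 passed in this way, and Epha7, Fxyd7, Crabp1 and Myh7 exceeded 1387 on no array of the other pieces. Their calls are partly a product of the filter.

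Floored log2 values were fitted in R 4.3.3 with limma 3.58.1, with 6 group means and 6 residual and 2.86 prior degrees of freedom. Two-sided p-values were Benjamini-Hochberg adjusted over the 5832 probe sets, and the threshold was 0.05. The number of arrays limits the precision, and p-values measure the spread between the 2 dissections of a group. A group with both arrays at the floor shows no spread, so p-values of such genes can be too small. This held for Wfs1 in all groups except ventral. It held in the medial and dorsal groups for, among others, Fxyd7, Nrgn, Rasgrp2, Crabp1, Resp18, Pacsin1, Myh7 and Magel2. It also held in the medial group for Scg2 and in the dorsal group for Cyb561. In the ventral group it held for Eomes, Lima1, Neurog2, Smo, Cbx2, Hdac1 and Gadd45g. A gene with several tested probe sets is represented by the one of highest mean level.

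The genes named are the 25 largest differences in each direction that passed, had the same sign in both replicates and are in none of the striatal, GABAergic and cell cycle lists, and members of gene lists. The members, lists and this rule were chosen with earlier results of these data known, and the 11 promoter motifs after the values were seen. In simulated arrays with 5832 probe sets, this comparison recovered 59% of 100 changes of 1 log2 unit and 93% of 100 changes of 2, with 7 false calls among 159. The simulated arrays were independent, had no floor and no differences among the other pieces. These rates therefore need not hold for the real arrays. The labels do not say that equal replicate numbers share a dissection, so number was not a block. Other floors, filters, scalings, fits and array sets were tried.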

Additional observations from a re-analysis of the deposited data

How the results depend on the processing

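All alternatives were set beside the 248 probe sets higher and 323 lower in the ventral piece. Without the filter 195 were higher and 206 lower, with 12422 tested, and 13 of the 50 named genes lost their call. With replicate number as a block (replicate block), 398 were higher and 540 lower. The labels do not say that the numbers pair dissections, but some arrays correlated more with a same-numbered array of another group than with their own replicate, as medial 1 did with dorsal 1 (r = 0.965, own replicate 0.934) and hemisphere 2 with occipital 2 (0.969, own replicate 0.901). With medial left out of the mean, 144 were higher and 213 lower. Leaving out each array in turn gave 33 to 288 higher and 58 to 365 lower, lowest without ventral replicate 1, where 854 probe sets had an unadjusted p under 0.05. With array weights 338 were higher and 452 lower. Of the 50 named genes, 20 kept their call in all 12 fits that left out an array and 16 in all 25 alternatives. Without ventral replicate 1, 23 of 50 kept it, and without ventral replicate 2, 31 of 50. None of the 50 changed sign in the 25 alternatives. In these settings the median of all tested probe sets stayed between -0.03 and 0 in log2. Folds of genes near the floor are limited by it.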

Other observations

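Imprinted genes, which are read from 1 parental copy in at least some tissues, form a group that was picked after its values were seen. It therefore has no test of its own, and which copy was read here was not measured. Of 20 tested, 5 rose and 1 fell in the ventral piece, with a median of 0.23 in log2 beside -0.02 over all tested genes. Ndn, or necdin, a neuronal growth suppressor, had average differences of 42439 and 40296 in ventral, against 16102, 22496 and 32295 as lowest, median and highest of the 8 other arrays. Magel2, its neighbour in the genome, had 2685 and 1608, against 1.1, 512 and 1262. Both lay above all other arrays and rose by 0.88 (SE 0.13, adjusted p = 0.00418 by limma) and by 1.36 in log2 (SE 0.26, adjusted p = 0.0125). Blcap (1.10), the long noncoding RNA gene Meg3 (1.07) and Gatm (0.92), an enzyme of creatine synthesis, rose too. The zinc finger gene Plagl1 had 949 and 1072 in ventral, against 1746, 2006 and 3035, and fell by 1.09 (SE 0.22, adjusted p = 0.0172). Nnat differed by 0.46 and did not pass. The probe set of Peg3 with the highest mean differed by 0.99 and did not pass, while of its 2 others 1 passed at 0.74 and 1 did not at 0.79. Without ventral replicate 1 the group had 1 higher and 0 lower calls, and without ventral replicate 2 it had 3 and 0. Blcap kept its call in each fit that left out 1 array, and Meg3 kept it in 2 of 12.

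Immediate early and stress response genes were 1 higher and 2 lower of 19 tested, with a median of 0.00 in log2. The share higher is near the 4.34% of all tested genes. The share lower rests on 2 genes, beside 5.74% of all tested genes. The 2 that fell, Gadd45g (627.9 and 533.9 in ventral, both under the floor, against 1266, 1719 and 2783) and Ier2 (1274 and 869, against 1644, 2280 and 4448), lay below all 8 other arrays. The call on Ier2 was lost without ventral replicate 2. Of 20 genes of cholesterol and fatty acid synthesis the desaturase gene Scd1 rose by 1.10 in log2 (SE 0.22, adjusted p = 0.0166 by limma). Its 2 other tested probe sets differed by 1.29, which was called, and by -0.30, which was not. In that list 17 of the 20 differences were above 0, beside 2174 of 4562 over all tested genes. Its 1 call in 20 is a share close to the 4.34% higher among all tested genes. The call on Scd1 was lost without either ventral replicate.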
